A study of Homo sapiens with 2 samples.

Results

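The genes followed here are 10 transcription regulators of the immediate early response: the FOS family (FOS, FOSB, FOSL1 and FOSL2), the JUN family (JUN, JUNB and JUND), EGR1, MYC and IER2. They were chosen by gene name, and all 10 were found among the 58233 genes of the deposited table. The cells were MDA-MB-231, an established breast cancer line with mesenchymal features. In the labels the control culture (shCon) received a lentivirus with a non-targeting hairpin, and the other (shMPP7) a lentivirus with a hairpin against MPP7, a membrane scaffold of cell junctions. Both cultures shared a multiplicity of infection of 10 and 7 days of puromycin selection, and each gave 1 RNA library. With 1 library per group no p-value was possible, and every interval below is a 95% interval for counting error only, not for the spread between cultures.

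AP-1 is a family of dimers that bind DNA through a basic region and a leucine zipper. FOS proteins pair with JUN proteins, while JUN proteins can also pair with each other. FOS, FOSB, EGR1 and IER2 are classically switched on within minutes of a growth signal through MAP kinases and the serum response factor SRF, and their transcripts decay fast. FOSL1, also called Fra-1, is a slower member that accumulates under sustained RAS and ERK signalling and is known as the prominent FOS protein of mesenchymal breast cancer lines. MYC, a basic helix-loop-helix factor that works with MAX, is both an early response gene and a driver of growth.

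The promoters of 4 of these genes are shown with matches to promoter elements. RefSeq promoters (GRCh38.p14) were matched for 8 of the 10 genes, all but FOSL1 and MYC. The 250 bases before the RefSeq transcript start were searched on both strands, and positions are counted from that start. EGR1, FOS, JUN and JUND are shown because they include the gene with the highest ratio between libraries among well-counted members, the archetypal silent member, and both JUN genes at the top of their family. Capitals mark a CArG box (the SRF site) or the CRE core TGACGT in EGR1, where the core lies on the opposite strand and reads ACGTCA. They mark the CRE core and TATAAA in FOS, TGACATCA (a CRE-like AP-1 site) in JUN, and TGACGTCA (a full CRE, which contains the CRE core) in JUND. A further CRE core of JUND, ACGTCA from 87 to 82 bases before the start, is left in lower case. The windows are chr5:138465229-138465478 (plus strand) for EGR1, chr14:75278578-75278827 (plus strand) for FOS, chr1:58784048-58784297 (minus strand) for JUN and chr19:18281623-18281872 (minus strand) for JUND, each written 5′ to 3′ on the strand of the gene.
EGR1: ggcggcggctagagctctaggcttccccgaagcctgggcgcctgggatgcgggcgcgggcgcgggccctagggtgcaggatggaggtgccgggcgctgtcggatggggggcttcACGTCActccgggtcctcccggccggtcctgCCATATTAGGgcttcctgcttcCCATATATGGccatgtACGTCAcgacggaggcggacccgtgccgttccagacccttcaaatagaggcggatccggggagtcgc
FOS: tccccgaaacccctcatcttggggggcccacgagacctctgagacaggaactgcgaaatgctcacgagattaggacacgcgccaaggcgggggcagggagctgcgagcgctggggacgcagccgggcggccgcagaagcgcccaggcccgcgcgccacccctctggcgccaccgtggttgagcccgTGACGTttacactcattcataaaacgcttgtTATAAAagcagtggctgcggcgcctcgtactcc
JUN: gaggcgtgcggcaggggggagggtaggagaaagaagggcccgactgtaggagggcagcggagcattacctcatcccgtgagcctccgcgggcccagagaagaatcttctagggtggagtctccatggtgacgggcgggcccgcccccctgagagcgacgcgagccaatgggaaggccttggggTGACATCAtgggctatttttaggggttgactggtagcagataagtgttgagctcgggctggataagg
JUND: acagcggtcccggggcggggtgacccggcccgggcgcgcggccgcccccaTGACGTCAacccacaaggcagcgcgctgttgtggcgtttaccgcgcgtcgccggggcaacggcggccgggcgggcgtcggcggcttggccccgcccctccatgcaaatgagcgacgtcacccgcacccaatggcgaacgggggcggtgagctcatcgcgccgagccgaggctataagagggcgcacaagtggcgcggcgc
EGR1 held 2 CArG boxes, CCATATTAGG from 105 to 96 and CCATATATGG from 83 to 74 bases before the start, where 1.16% of 35116 promoters of the same length held any. The CRE core was present in EGR1, FOS, FOSB, FOSL2 and JUND, against 7.10% of all promoters. In FOS it lay 64 to 59 bases before the start, in FOSB 60 to 55 and in FOSL2 66 to 61. The full CRE was found in JUND (1.65% of all promoters), and TGACATCA in JUN, 67 to 60 bases before the start (2.37%). TATAAA was found in FOS, FOSB and JUNB (10.7%). The TRE letters TGACTCA (found in 1476 of all promoters), the E-box CACGTG (6.34%) and the EGR letters GCGGGGGCG (4.72%) and GCGTGGGCG (0.720%) were not in these windows of the 8 genes. A match describes letters and does not show that a factor is bound. Of the 8 genes only EGR1 held a CArG box in its window. Bases further upstream were not searched, so a missing match does not show that a gene lacks the element.

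The genes have compact structures in GENCODE 29 (GRCh38), to which they were matched by Ensembl ID. JUN (chromosome 1, positions 58780788 to 58784327), JUNB (chromosome 19, 12791496 to 12793315) and JUND (chromosome 19, 18279760 to 18281622) each have a longest transcript of 1 exon, as has IER2 (chromosome 19, 13150415 to 13154908). FOS (chromosome 14, 75278774 to 75282230), FOSB (chromosome 19, 45467995 to 45475179), FOSL1 (chromosome 11, 65892049 to 65900573) and FOSL2 (chromosome 2, 28392448 to 28417312) each have 4 exons, EGR1 (chromosome 5, 138465490 to 138469315) has 2, and MYC (chromosome 8) has 3. For JUN and FOS these gene coordinates begin upstream of the RefSeq starts used for the promoter windows. By them the whole JUN window lies within the gene, as does the last part of the FOS window, with its TATAAA. The EGR1 and JUND windows lie outside their genes, and the windows of the remaining genes were not compared. All 10 genes are protein coding and richer in G and C than the median measured protein-coding gene (48.0%), from 52.6% in FOS to 69.7% in JUND. JUND stands at percentile 99.7 for GC content and percentile 13.2 for transcript length. FOSL2 is the exception in length, with a transcript of 6708 bases against 1669 in FOSL1.

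The pentamer ATTTA, the core of the AU-rich elements that mark short-lived transcripts, occurred in the 3′ untranslated region of every gene of the set except IER2, against 66.9% of 19133 protein-coding genes. MYC held 4 copies, at 8.40 per kilobase, and FOS 5, at 6.20 per kilobase, where the median protein-coding gene had 1.47. JUND, at 1.47, stood at that median, and EGR1 had 0.810 per kilobase. The longer AU-rich letters TTATTTATT were found once each in FOS and FOSL2 and in 8.13% of all genes.

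The libraries held 23928620 estimated counts in shCon and 24513089 in shMPP7. MPP7, the target of the hairpin, had 42 counts (interval 30.3 to 56.8) in shCon and 21 (13.0 to 32.1) in shMPP7, so that its CPM (counts scaled to library size) was 0.488 times as high (0.275 to 0.843), while its FPKM went from 0.5 to 0.316. Markers of the line were abundant in both libraries, with VIM at 2791 and 3317 FPKM, CD44 at 1088 and 1129, AXL at 522 and 558, and CAV1, lower in shMPP7, at 180 and 160 (CPM ratio 0.883, 0.856 to 0.911). The epithelial cadherin CDH1 had 3 counts and 1 count. The luminal receptor gene ESR1 had 3 counts and was listed at 0 in shMPP7, while ERBB2 stood at 28.7 and 30.6 FPKM, EPCAM at 5.71 and 5.22, and GATA3 at 5.17 and 6.38 (CPM ratio 1.18, 1.02 to 1.36). Of the leukocyte markers, PTPRC and CD3E had at most 1 count and CD14 had 121 and 176, and the summed FPKM of the list was 3.63 and 5.45. Summed FPKM of 3 endothelial markers was 0.873 and 1.87, nearly all of it PECAM1 (0.824 and 1.80), whose 68 and 73 counts gave a CPM ratio of 1.05 (0.743 to 1.48). That of 3 fibroblast markers was 8.61 and 9.90, with COL1A1 at a CPM ratio of 1.19 (1.01 to 1.41) and PDGFRB at 0.821 (0.716 to 0.941). In bulk RNA, fewer cells of a type and less RNA per cell cannot be told apart.

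The 10 genes spanned levels from below 1 to 327 FPKM (the deposited value, scaled to transcript length and library size). FOSL1 was the most abundant in both libraries, at 295 FPKM (289 to 302) in shCon and 327 (320 to 333) in shMPP7. This placed it at percentiles 97.3 and 97.4 among genes with a mean of at least 1 FPKM. FOS and FOSB, the archetypal early FOS genes, were at the bottom. FOS stood at 1.77 FPKM (1.29 to 2.36) and 1.07 (0.758 to 1.47), and FOSB at 0.383 (0.209 to 0.643) and 0.703 (0.455 to 1.04). EGR1 was as low, at 1.48 FPKM (1.21 to 1.80) in shCon and 2.01 (1.69 to 2.37) in shMPP7.

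Between these extremes lay the JUN genes, FOSL2, MYC and IER2. In shCon the order by FPKM was FOSL1, JUND, JUN, FOSL2, MYC, IER2, JUNB, FOS, EGR1 and FOSB. JUND, the constitutively transcribed JUN gene, was at 87.5 FPKM (83.5 to 91.6) in shCon and 93.5 (89.7 to 97.4) in shMPP7. JUN was at 85.2 (83.2 to 87.2) and 87.4 (85.4 to 89.5). In shCon these 2 did not differ beyond their counting intervals, nor did FOSL2 at 77.9 (76.5 to 79.2) and MYC at 74.9 (72.3 to 77.7), nor FOS and EGR1. In shMPP7, MYC at 87.4 FPKM (84.5 to 90.4) stood above FOSL2 at 72.4 (71.1 to 73.8), and EGR1 above FOS. IER2, a small nuclear early response protein, was at 53.4 and 57.4 FPKM, and JUNB, often an attenuator of JUN activity, at 32.3 and 34.3 FPKM.

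**Figure D1:**
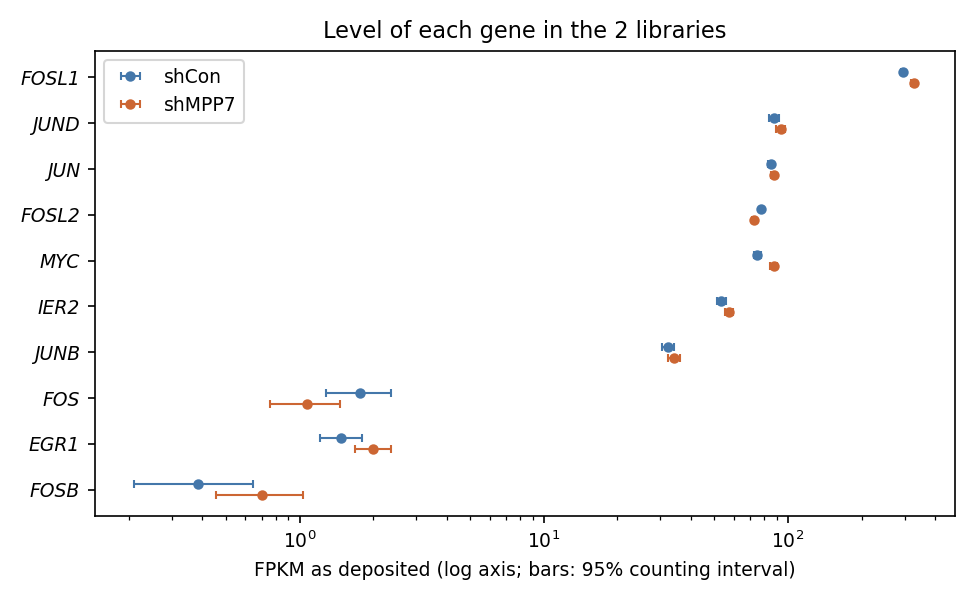
FPKM as deposited on a log axis for each of the 10 genes in shCon (blue) and shMPP7 (orange), with bars for the 95% counting interval of the count scaled to FPKM. FOSL1 lies at 295 and 327 FPKM, and FOS, EGR1 and FOSB lie between 0.383 and 2.01 FPKM.

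The FOS family pool was therefore made almost wholly of FOSL1 and FOSL2 transcripts. Of the summed FPKM of the family (375 in shCon and 401 in shMPP7), FOSL1 held 78.7% in shCon and 81.5% in shMPP7, and FOSL2 20.7% and 18.1%. FOS held 0.470% and 0.267%, and FOSB 0.102% and 0.175%. In counts, which favour long transcripts, FOSL2 held the larger share, 57.4% (56.8 to 58.1) in shCon and 53.2% (52.5 to 53.9) in shMPP7. FOSL1 held 42.3% of counts (41.6 to 43.0) in shCon and 46.5% (45.8 to 47.2) in shMPP7. The shift toward FOSL1 had the same direction in both units.

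The JUN family pool was shared more evenly. JUN held 41.6% of its summed FPKM in shCon and 40.6% in shMPP7, JUND 42.7% and 43.4%, and JUNB 15.8% and 15.9%. In counts JUND went from 18.7% (17.97 to 19.53) of the family in shCon to 22.2% (21.4 to 23.0) in shMPP7. The summed FPKM of the FOS family was 1.83 times that of the JUN family in shCon and 1.86 times in shMPP7. As summed counts, the CPM ratio of shMPP7 over shCon was 0.964 (0.945 to 0.982) for the FOS family and 1.03 (1.01 to 1.06) for the JUN family. For all 7 genes together it was 0.986 (0.971 to 1.00), an interval that includes 1. In summed FPKM the FOS family went the other way, from 375 in shCon to 401 in shMPP7, and the JUN family from 205 to 215. The median log2 FPKM ratio over all measured genes was also above 0, at 0.04.

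**Figure D2:**
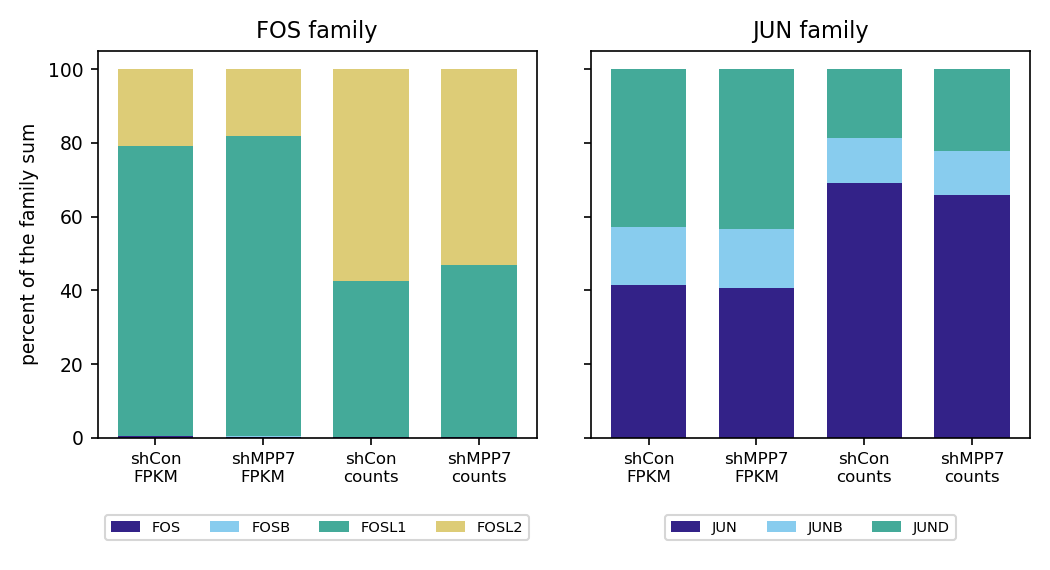
Stacked bars give the percent of the summed FPKM (left pair of each panel) and of the summed counts (right pair) held by each member of the FOS family and of the JUN family in each library. FOSL1 holds 78.7% and 81.5% of FOS family FPKM, while FOS and FOSB are barely visible.

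Between libraries, most of these genes were close to equal. Of the 10, 8 had at least 100 counts over both libraries, the minimum for the counts that follow, and FOS (83 counts) and FOSB (39) did not. Of the 8, EGR1 alone was past the size threshold upward (CPM higher in shMPP7 by 25% or more), against 3.06% of the 12155 genes measured. None was past it downward (lower by 20% or more, the same fold), against 7.47%. JUND, MYC and FOSL1 (3 genes) had a ratio with an interval above 1, against 13.8% of all genes, and 1 an interval below 1 (FOSL2), against 21.5%. The median log2 CPM ratio was 0.08 over the 8 and -0.02 over all 12155 genes. In FPKM (log2 of FPKM plus 1), none of the 9 genes with a mean of at least 1 passed 2-fold upward (0.889% of 12933 genes) or downward (0.881%).

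JUND had the widest difference among the AP-1 genes with enough counts. It had 1835 counts in shCon (1752 to 1921) and 2299 in shMPP7 (2206 to 2395), or 76.7 and 93.8 CPM, and these count intervals do not overlap. The CPM ratio was 1.22 (1.15 to 1.30). Of 5390 genes with summed counts from 1000 to below 5000, 12.9% had an interval above 1 and 0.798% were past the size threshold upward. In FPKM, however, JUND went only from 87.5 to 93.5, a ratio of 1.07, so that a count was worth less FPKM in shMPP7 (4.07 per 100 counts) than in shCon (4.77). Once the linear dependence of ratios on GC content and length was subtracted, the CPM ratio of JUND was 1.06 (0.999 to 1.13), which includes 1. The part of GC content in the JUND ratio was not tested beyond that subtraction.

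The other JUN genes had ratios close to 1. JUN, the strongest transactivator of the family, was counted 6760 and 6823 times, and its CPM ratio was 0.985 (0.953 to 1.02). For JUNB, with counts of 1197 and 1250, it was 1.02 (0.941 to 1.104). JUND relative to JUN, a quantity that needs no library scaling, was 1.24 times (1.16 to 1.33) as high in counts in shMPP7 as in shCon, but the JUND to JUN ratio of FPKM moved only from 1.03 to 1.07. JUNB overlaps HOOK2 on the opposite strand (302 and 280 counts), and without known strand their reads cannot be told apart.

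FOSL1 and FOSL2 lay on opposite sides of equality. FOSL1 had 8982 counts in shCon (8797 to 9170) and 9745 in shMPP7 (9552 to 9940), a CPM ratio of 1.06 (1.03 to 1.09). FOSL2, the other FOS gene active at steady state, had 12195 counts (11979 to 12413) and 11158 (10952 to 11367), for a CPM ratio of 0.893 (0.870 to 0.916). Among 2132 genes with at least 5000 counts 30.3% had an interval above 1 and 23.9% below 1, so neither call is rare at this depth. FOSL1 relative to FOSL2 was 1.19 times (1.14 to 1.23) as high in counts in shMPP7, and in FPKM the ratio of the pair went from 3.79 to 4.51. After subtraction of the length and GC trend FOSL1 itself was at 0.960 (0.932 to 0.988), below 1, FOSL2 at 0.900 (0.877 to 0.923), and the pair differed by 1.07. With the trend removed FOSL1 stood at percentile 43.7 of the measured genes and FOSL2 at percentile 21.0.

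FOS and FOSB had too few counts for their ratios to be told from 1. FOS had 45 counts in shCon (32.8 to 60.2) and 38 in shMPP7 (26.9 to 52.2), so that the CPM ratio was 0.824 (0.521 to 1.30). FOSB had 14 (7.65 to 23.5) and 25 (16.2 to 36.9), for a CPM ratio of 1.74 (0.872 to 3.63). The count intervals of the libraries overlap for both genes. The FPKM of FOS was lower by more than its counts, from 1.77 to 1.07, since 100 counts were worth 3.92 FPKM in shCon and 2.82 in shMPP7. That shift of 0.718 lies outside the central range of measured genes (percentiles 5 to 95, 0.847 to 1.23). FOSB overlaps ERCC1 on the opposite strand, which had 2226 and 2358 counts.

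EGR1, a zinc finger factor induced by serum and stress, had 103 counts in shCon (84.1 to 125) and 137 in shMPP7 (115 to 162). Its CPM ratio was 1.30 (0.998 to 1.69), so the largest ratio among the 8 measured genes had an interval that just included 1. Of 4633 genes with summed counts from 100 to below 1000, 6.99% were past the size threshold upward. The FPKM moved alike, from 1.48 to 2.01, and after subtraction of the trend the CPM ratio was 1.24 (0.957 to 1.62), just under the size threshold.

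MYC was higher in shMPP7 in each unit. It had 2998 counts in shCon (2892 to 3107) and 3401 in shMPP7 (3288 to 3517), whose intervals do not overlap, and a CPM ratio of 1.11 (1.05 to 1.16). In FPKM it went from 74.9 to 87.4, a ratio of 1.17, and after subtraction of the trend the CPM ratio was 1.05 (1.003 to 1.11), still above 1. Of genes with at least 5000 summed counts, as MYC had, 30.3% had an interval above 1 before the subtraction. The MYC call is thus not rare at this depth. MYC relative to FOSL2 was 1.24 times (1.17 to 1.31) as high in counts, and in FPKM the pair went from 0.962 to 1.21. IER2, counted 2189 and 2363 times, had a CPM ratio of 1.05 (0.994 to 1.12), and of 0.975 (0.920 to 1.03) after the subtraction.

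**Figure D3:**
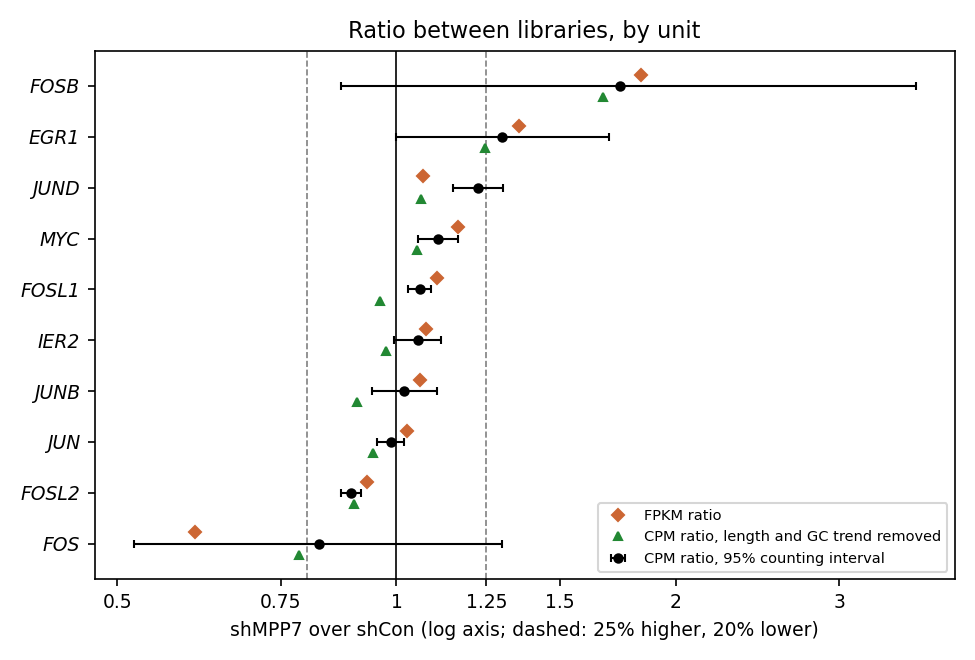
Ratio of shMPP7 over shCon on a log axis for each gene: CPM with its 95% counting interval (black), FPKM without a pseudocount (orange diamonds) and CPM with the length and GC trend removed (green triangles). JUND is at 1.22 in CPM but 1.07 in FPKM, FOSL2 is below 1 by all 3 measures, and FOS and FOSB have wide intervals.

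After the trend was subtracted, the split of the 8 measured genes turned over, and their median log2 CPM ratio was -0.05, beside -0.04 over all genes. Only MYC kept an interval above 1 (8.88% of genes with a known length and GC content), while FOSL1, FOSL2, JUN and JUNB had one below it (21.9%). The fit covered 11367 protein-coding genes and accounted for 15.8% of the variance of their log2 CPM ratios. FOSL2 and MYC were the 2 genes whose interval stayed on the same side of 1 with and without the trend.

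**Figure D4:**
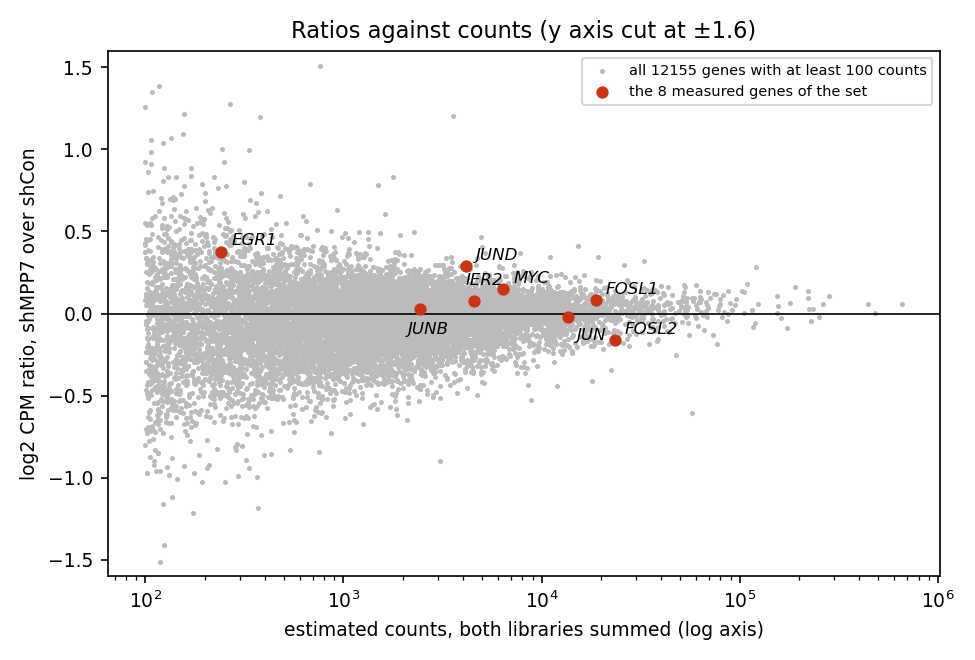
Log2 CPM ratio against the estimated counts of both libraries summed (log axis) for 12155 genes (grey) and the 8 measured genes of the set (red). The y axis ends at 1.6 in both directions and leaves out 10 genes, and the 8 genes of the set lie between -0.16 (FOSL2) and 0.38 (EGR1).

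Among other bZIP genes, listed as AP-1 dimer partners and their relatives, several low-abundance ones were higher in shMPP7. Of 17 listed, 12 were measured, of which 4 were past the size threshold upward and none downward (background 3.06% and 7.47%), and 5 had an interval above 1 and 2 below it (13.8% and 21.5%). Of those past it upward, JDP2, BATF3 and ATF3 had summed counts from 100 to below 1000, where 6.99% of genes pass upward. JDP2, a JUN-binding repressor, was counted 138 and 225 times and had a CPM ratio of 1.59 (1.28 to 1.98), and its FPKM went from 4.14 to 7.39. BATF3, which pairs with JUN, was counted 188 and 241 times, with a CPM ratio of 1.251 (1.03 to 1.52). The stress factors ATF3, with 76 and 125 counts, and ATF4, with 4810 and 6254, were the other 2, at 1.61 (1.20 to 2.16) and 1.27 (1.22 to 1.32). In FPKM, ATF3 was level at 2.95 and 3.06. ATF2, a JUN partner at CRE sites, was at 0.818 (0.754 to 0.887) and CREB1 at 0.881 (0.800 to 0.970), and the small MAF gene MAFF at 1.12 (1.05 to 1.19). The choice of BATF3, ATF2, CREB1 and MAFF was made with their values known.

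The network of MYC partners and antagonists was close to equal in the libraries. Of 12 listed genes 9 were measured, and none was past the size threshold (background 3.06% upward and 7.47% downward). MGA, a MAX-binding repressor, was the only one with an interval off 1 (background 13.8% above and 21.5% below). It was at 0.855 (0.779 to 0.937), and at 0.948 with the length and GC trend removed. MAX, the obligate partner of MYC, was counted 1399 and 1395 times. Its CPM ratio was 0.973 (0.903 to 1.05), while its FPKM went from 85.3 to 72.1. MXD3 and MLX, at 0.963 (0.862 to 1.08) and 1.03 (0.971 to 1.102), had intervals that include 1. The MYC paralogs were at the floor of detection or near it, with MYCN listed at 0 in both libraries and MYCL at 9 and 24 counts.

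Genes known as MYC targets had a median log2 CPM ratio of 0.05 over the 37 measured of 38, beside -0.02 over all genes. Of these, 17 had an interval above 1 and 7 below it (13.8% and 21.5% over all genes). Most of the list had at least 5000 summed counts, where the shares over all genes were 30.3% and 23.9%. Past the size threshold upward was 1 gene (3.06%, and 6.99% of genes with summed counts from 100 to below 1000, where it lies). That gene was TERT, the telomerase catalytic subunit, counted 29 and 71 times, at a CPM ratio of 2.39 (1.53 to 3.82). SHMT2 of serine metabolism was at 1.17 (1.13 to 1.22) and ODC1, a classical MYC target of polyamine synthesis, named after its value was seen, at 1.17 (1.13 to 1.22). The ribosome assembly gene NOP58 was at 0.842 (0.775 to 0.915). After subtraction of the trend the list had a median of 0.0081.

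AP-1 target genes were mixed. Of 31 listed, 26 were measured, 9 with an interval above 1 and 3 below it (background 13.8% and 21.5%). Most of the 26 had at least 5000 summed counts, where the background was 30.3% and 23.9%. The median log2 CPM ratio was 0.04, and -0.0068 once the trend was subtracted. HMGA1, a chromatin protein, was at 1.22 (1.21 to 1.23) with 54037 and 67498 counts, while its relative HMGA2 was at 0.876 (0.801 to 0.958). EREG, an EGFR ligand, was the 1 gene of the list past the size threshold downward (background 7.47%), at 0.752 (0.690 to 0.820). The collagenase genes often used as AP-1 reporters were near silent, with MMP1 at 24 and 21 counts, MMP9 at 46 and 45, and MMP13 listed at 0 in both. CCND1, the cyclin gene with an AP-1 site, was at 0.996 (0.975 to 1.02).

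The relatives of EGR1 were near silent and its corepressors close to equal. EGR2, EGR3 and EGR4 had at most 11 counts in either library. NAB2, which binds and restrains EGR1, was at 1.09 (0.961 to 1.23), NAB1 at 0.923 (0.858 to 0.994) and WT1 at 0.861 (0.704 to 1.05). Of 13 known EGR1 targets 11 were measured, 2 with an interval above 1 and 4 below it (background 13.8% and 21.5%), with a median log2 CPM ratio of -0.01. F3 (tissue factor) was at 0.898 (0.864 to 0.933) and VEGFA at 0.891 (0.866 to 0.918).

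Other immediate early genes had the highest median among the 11 lists, 0.10 over the 31 measured of 36, with 24 above 0 (as were 5348 of the 12155 genes measured). An interval above 1 was found for 12 of the 31 and one below it for none (background 13.8% and 21.5%), while 4 were past the size threshold upward and 1 downward (3.06% and 7.47%). All 4 had summed counts from 100 to below 1000, where 6.99% of genes pass upward. SIK1, a salt-inducible kinase, had counts of 30.1 and 78.5 and a CPM ratio of 2.55 (1.65 to 4.01). These counts are fractions, as arise when reads fit several loci. PTGS2 (cyclooxygenase) was counted 82 and 60 times, at a CPM ratio of 0.714 (0.503 to 1.01). The other genes past it upward were ATF3 (given above) and, chosen after their values were seen, the Notch effector HES1 at 1.40 (1.14 to 1.72) and the nuclear receptor NR4A2 at 1.27 (0.912 to 1.78). DUSP1, the MAP kinase phosphatase, and ZFP36 had ratios of 1.13 (0.939 to 1.37) and 1.13 (0.966 to 1.32), which include 1. After subtraction of the trend the median was 0.048 and no longer the highest, that of the factors acting on AU-rich elements being 0.057.

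Upstream of the set, the signalling genes lay near equality. None of the 18 MAP kinase cascade genes was past the size threshold (background 3.06% upward and 7.47% downward). There were 2 intervals above 1 and 3 below it, shares near those of all genes (13.8% and 21.5%). MAP3K1, RPS6KA3 and BRAF were the lowest, at 0.853 (0.786 to 0.927), 0.866 (0.815 to 0.919) and 0.860 (0.768 to 0.963). With the length and GC trend removed they were at 0.909, 0.941 and 0.943. SRF, which binds CArG boxes such as those shown for EGR1, was counted 4489 and 5110 times, at a CPM ratio of 1.11 (1.07 to 1.16), the only interval above 1 among the 10 genes of the SRF list (background 13.8%). In that list 5 intervals lay below 1 (background 21.5%), among them the mediator gene MED23 at 0.824 (0.724 to 0.938), the SRF coactivator gene MKL2 at 0.864 (0.772 to 0.966) and EP300 at 0.870 (0.808 to 0.935). With the trend removed SRF was at 1.05, MED23 at 0.870, MKL2 at 0.924 and EP300 at 0.898. The list medians were then -0.075 (SRF) and -0.035 (MAP kinases), beside -0.038 over all genes.

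Genes that act on the stability of these transcripts and proteins, in either direction, were also within the size threshold (background 3.06% upward and 7.47% downward). Of 11 factors acting on AU-rich elements 3 had an interval above 1 and 2 below it (background 13.8% and 21.5%). CNOT1, the scaffold of the deadenylase complex, was at 0.874 (0.842 to 0.908), TIA1 at 0.885 (0.789 to 0.994) and ZFP36L1, named after its value was seen, at 1.12 (1.07 to 1.17). Of 14 genes of AP-1 and MYC protein turnover none had an interval above 1 and 6 had one below it, against 13.8% and 21.5% of all genes. The gene of the deubiquitinase USP28, which protects MYC from degradation, was at 0.879 (0.811 to 0.952) and the ligase gene ITCH, which acts on JUN proteins, at 0.886 (0.835 to 0.939). With the trend removed these 2 were at 0.912 and 0.956, and the turnover list had a median of -0.020, beside -0.038 over all genes. FBXW7, the ligase that recognises phosphorylated MYC and JUN, also named after its value was seen, was at 0.996 (0.877 to 1.13).

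**Figure D5:**
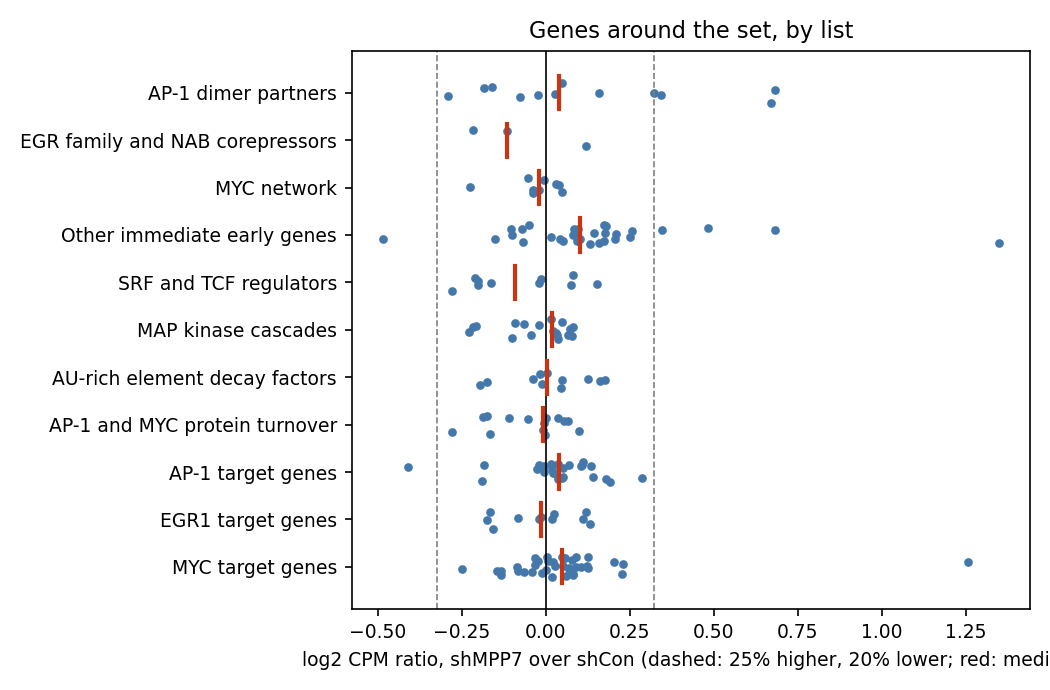
Log2 CPM ratio of each measured gene (blue points, jittered vertically) in the 11 lists, with the list median as a red bar and the size threshold (25% higher, 20% lower) as dashed lines. Medians lie between -0.12 (EGR family and NAB corepressors, 3 genes) and 0.10 (other immediate early genes). Points past the upper threshold are concentrated in the dimer partner and immediate early lists, with ATF3 in both. In these lists all such points but ATF4 had summed counts from 100 to below 1000.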

How the data were processed

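Per the file headers, the deposited table gave an estimated count and an FPKM per gene for each library. Per the submitters' processing notes TopHat2 2.0.9, Cuffdiff and hg19 were named without a role or order, and the counter, annotation and strandedness are not given in the sources used here. Whole numbers (within 1e-09) made up 71.8% (shCon) and 73.0% (shMPP7) of the deposited count values above 0. Of the gene IDs, 99.4% matched GENCODE 29, an annotation of GRCh38, whose coordinates, longest transcripts and GC contents were used.

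Counts were divided by library totals to give CPM. Ratios have exact Clopper-Pearson intervals conditional on the summed count, rounded to whole numbers, and single counts exact Poisson intervals (scipy 1.17.1). A read without a molecular identifier is not an independent molecule. Genes with at least 100 summed counts were compared by a fixed size threshold, 25% higher or, the same fold, 20% lower. Intervals were tested on simulated counts that held counting error only, so that test does not cover the spread between cultures or duplicate reads. Where a name had several lines, the one with most counts was used, and no gene of the set was affected. Scaling alternatives used edgeR 4.0.16 and DESeq2 1.42.0, neither as a test.

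The genes and lists were chosen with earlier results of these data known, so they are no independent support. All 10 genes, the 3 members of each list with the largest absolute ratio, MPP7, and the partners MAX, ATF3, NAB2, SRF, ZFP36 and DUSP1 were to be named, and further genes (among them near-silent relatives such as EGR2 and MYCL, the collagenase genes and CCND1) were named after their values were seen. A few genes that this rule names are not reported here. No gene is named for a similar pattern, since 2 libraries give 1 ratio per gene.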

Additional observations from a re-analysis of the deposited data

How the results depend on the processing

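No paired analysis was possible because each group had 1 library, and for the same reason no replicate could be left out. The number of measured genes past the size threshold upward (1, EGR1) was 3 at 1.1-fold (13.5% of all genes), 0 at 1.5-fold (0.609%) and at 2-fold (0.156%). It was 2 without a minimum (18.3%) and 0 with at least 500 counts (1.08%). In FPKM plus 1 it was 0 (7.77%), though the FPKM ratio of EGR1 without the added 1 was 1.36. It was 2 with DESeq2 size factors (3.87%) and 0 with the length and GC trend removed (2.27%). The number past the size threshold downward (0) was 1 at 1.1-fold (25.7%) and 1 in FPKM plus 1 (FOS, 7.32%). Intervals above 1 numbered 5 with TMM (17.5%), 5 with DESeq2 size factors (20.4%) and 5 with upper quartile scaling (16.7%) in place of 3, EGR1 and IER2 being added. With the trend removed, an alternative chosen after seeing the data, 1 lay above and 4 below 1 (8.88% and 21.9%). FOSL1 reversed from a log2 CPM ratio of 0.08 to -0.059 there, beside a median of -0.04 over all genes, and the cause was not tested. In counts in place of FPKM, FOSL1 held 42.3% and 46.5% of the FOS family in shCon and shMPP7, and JUN 69.0% and 65.8% of the JUN family, since counts depend on transcript length. Other scalings moved the median of all genes by 0.00597 to 0.0348 on the log2 scale. Of 99 alternative log2 CPM ratios of the 10 genes and MPP7, 87 stayed inside the counting interval of the main value, and of 55 list medians 54 moved by less than 0.1. Much of this was fixed in advance. Summing rows of one name changed no value, and other scalings shift every list median alike, by at most 0.0348. All the log2 CPM ratios outside their interval came from the trend removal or from FPKM. The median of the SRF list moved from -0.09 in CPM to 0.04 in FPKM. With 1 library per group no difference here has a replicate check, and for FOS, FOSB and EGR1 the counts limit what could be detected.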
